A study of Homo sapiens with 4 samples.

Results

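The MYC family and MAX network were followed here as 9 genes, namely MYC, MYCN, MAX, MXD1, MXD3, MXD4, MXI1, MNT and MLX, out of 43311 gene names on the array. A gene was included when the array design gave its symbol to a probe that was not a control, and every such probe was used, whatever its level. This gave 19 of 58185 probes. Of these, 15 were well above background, by the flag of the scanner software, on all 4 arrays, and 1 was not well above background on any. The probe with the highest mean signal of each gene is called its main probe, and all 9 main probes were well above background on all 4 arrays.

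MDS-L is a human cell line established from myelodysplastic syndrome (MDS), and MDS-L/CDA is an AZA-resistant line made from it by transduction of CDA, whose product deaminates cytidine analogues. Both lines were grown in RPMI1640 with FBS (10%), IL-3 (20 ng/mL in the labels, where the study's methods give another concentration) and 2-mercaptoethanol (50 μM), and were exposed for 72 h to vehicle (0.1% DMSO) or to 1 μM AZA (5-azacytidine), a DNA-demethylating drug. The 4 groups were thus MDS-L vehicle, MDS-L AZA, MDS-L/CDA vehicle and MDS-L/CDA AZA, with 1 array of each, hybridized with a single dye. With 1 array per group no difference could be checked against replicates, no test was made, and MDS-L/CDA stands for resistance only as 1 transduced line. In the sample labels, the treatment field of MDS-L AZA and of MDS-L/CDA vehicle names the other treatment, whereas their titles, descriptions and source names all point to the groups used here. The titles give the AZA dose as 1 mM, where the other fields give 1 μM.

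MYC and MYCN are transcription factors that bind DNA only as dimers with MAX, mainly at the E-box CACGTG, and raise the transcription of genes for ribosome production, metabolism and cell division. The MXD proteins, MXI1 and MNT compete with MYC for MAX and, as dimers with it, recruit SIN3 and histone deacetylases to the same sites, so that they oppose MYC. MLX is a MAX-like protein that pairs with the glucose-sensing factors MLXIP and MLXIPL and with some MXD proteins. In blood progenitors MYC is known for growth and division, and several MXD genes are known to be induced as the cells mature.

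The probes were 60 bases long, and the sequences of 3 that lie in coding exons show what part of the proteins' function they read. Positions are those of hg19 in the deposited files, and each sequence is written in the direction of the gene with its first base starting a codon and no stop codon in that frame. Capitals in the MAX probe, at chr14:65560459-65560518 on the minus strand, mark 5 codons of the basic region through which MAX contacts DNA. Capitals in the MXI1 probe, at chr10:111985981-111986040 on the plus strand, mark 12 codons of the stretch that binds SIN3. The MXD1 probe, shown without capitals, reads codons just after the SIN3-binding stretch of MXD1 and spans chr2:70142526-70143302 on the plus strand, 777 bases, so that it crosses an intron and reads spliced RNA.
MAX: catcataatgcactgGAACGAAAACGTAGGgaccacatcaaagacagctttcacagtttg
MXI1: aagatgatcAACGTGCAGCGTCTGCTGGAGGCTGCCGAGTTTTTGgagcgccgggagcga
MXD1: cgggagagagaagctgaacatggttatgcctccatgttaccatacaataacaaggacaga

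The E-box was then looked for in front of the genes themselves, because the network acts through it. Windows of 250 bases before the annotated start, from RefSeq on GRCh38.p14, were found for 8 of the 9 genes (11 windows in all, and none for MYC). CACGTG reads the same on both strands, and it occurred in the windows of 3 of these genes, MXD4, MNT and MLX, once in each. Counted by windows, that was 3 of 11, and among all 35116 windows of the table CACGTG occurred in 6.34%. Its first base lay 238 bases before the start in MXD4, 193 in MNT and 50 in MLX. CACGTG itself contains a CG. The MXD4, MNT and MLX windows held more CG than 80.4%, 94.2% and 87.6% of all windows, in this order. The part of CG content in the matches was not tested. These windows are printed with CACGTG in capitals, and that of MXD1, which has no match, is added because MXD1 and MXD4 were the members with higher signal with AZA in MDS-L cells. A match is a description of the letters only, since no binding was measured.
MXD4 (chr4:2262110-2262359, minus strand): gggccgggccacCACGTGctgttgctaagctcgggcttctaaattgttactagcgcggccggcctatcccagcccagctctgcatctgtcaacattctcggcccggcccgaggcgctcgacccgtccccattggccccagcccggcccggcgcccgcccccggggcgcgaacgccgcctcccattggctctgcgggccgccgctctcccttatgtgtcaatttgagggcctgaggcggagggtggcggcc
MNT (chr17:2401061-2401310, minus strand): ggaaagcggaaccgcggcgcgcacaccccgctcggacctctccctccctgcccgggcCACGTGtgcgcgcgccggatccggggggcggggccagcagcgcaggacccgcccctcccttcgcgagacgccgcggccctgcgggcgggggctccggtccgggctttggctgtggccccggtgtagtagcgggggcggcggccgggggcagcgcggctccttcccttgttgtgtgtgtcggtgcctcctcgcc
MLX (chr17:42566850-42567099, plus strand): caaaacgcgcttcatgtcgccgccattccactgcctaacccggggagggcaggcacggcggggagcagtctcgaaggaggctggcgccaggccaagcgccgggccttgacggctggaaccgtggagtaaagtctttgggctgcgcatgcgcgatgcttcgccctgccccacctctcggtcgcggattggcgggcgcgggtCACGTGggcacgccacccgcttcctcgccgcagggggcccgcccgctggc
MXD1 (chr2:69914859-69915108, plus strand): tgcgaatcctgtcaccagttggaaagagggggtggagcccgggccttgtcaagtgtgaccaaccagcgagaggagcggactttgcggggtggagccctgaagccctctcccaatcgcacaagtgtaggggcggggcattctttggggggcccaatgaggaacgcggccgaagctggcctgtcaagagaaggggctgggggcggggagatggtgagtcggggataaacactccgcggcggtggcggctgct

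Levels are given as relative signal, the background-subtracted intensity of a probe divided by the array's 75th percentile (between 37.3 and 52.9 intensity units). Probes bind with different strength, so relative signals are compared between arrays and not between probes. The scanner's own error model put the error of a log2 ratio between 2 arrays at about 0.20 for most member probes. Spots of one probe on one array had an SD of 0.24 on the log2 scale at relative signals over 10, 0.34 between 1 and 10, and 0.40 under 1. The number of arrays limits the precision. Of 8 markers of a myeloid progenitor line, 7 were well above background on all 4 arrays and MPO on none, and their summed relative signal was between 190 and 221. KIT among them read 0.503 with vehicle and 23.8 with AZA in MDS-L cells, and 0.346 and 1.24 in MDS-L/CDA cells. Of 8 markers of other cell types, CD3E, EPCAM, COL1A1 and COL1A2 were well above background on no array, and the summed signal of the 8 was 4.67 with vehicle and 26 with AZA in MDS-L cells, and 4.60 with vehicle and 6.37 with AZA in MDS-L/CDA cells. Most of the excess in MDS-L AZA was ALB, at 17.9, and its part in the results was not tested. In RNA from whole cultures, fewer cells that use a gene and less of its RNA per cell cannot be told apart.

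In MDS-L cells, the main probes of 7 members, MYC, MYCN, MAX, MXD3, MXI1, MNT and MLX, had a lower signal with AZA than with vehicle, and those of MXD1 and MXD4 had a higher one. None of the 9 passed a ratio of 2 in either direction, against 6.73% of 17172 genes at least 2-fold higher and 6.03% at least 2-fold lower. The log2 ratios ran from −0.69 (MXI1) to 0.98 (MXD4), with a median of −0.24, where the median of all genes was −0.13.

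In MDS-L/CDA cells, 6 members had a higher signal with AZA and 3, MYC, MXI1 and MNT, a lower one. Again 0 of 9 passed a ratio of 2, against 2.53% of 15393 genes higher and 3.07% lower. The log2 ratios ran from −0.41 (MNT) to 0.42 (MYCN), with a median of 0.09, where the median of all genes was 0.02. The range of the members was thus narrower than in MDS-L cells, as was that of all genes, whose SD on the log2 scale was 0.47 for MDS-L/CDA and 0.66 for MDS-L among genes measured on both arrays.

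Between the lines, 0 of 9 members differed 2-fold in vehicle, against 1.97% of 16015 genes at least 2-fold higher and 2.64% at least 2-fold lower in MDS-L/CDA cells. With AZA, 1 member, MXD4, was at least 2-fold lower in MDS-L/CDA than in MDS-L cells and none was 2-fold higher, against 5.23% and 5.43% of 16739 genes. The AZA ratios of the lines themselves differed 2-fold for 0 of 9 members. Among 13962 genes well above background on all 4 arrays, 3.9% had a ratio in MDS-L cells at least 2-fold above that in MDS-L/CDA cells, and 6.15% at least 2-fold below it. These comparisons share arrays, so the 4 values of a gene are not independent of each other.

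**Figure D1:**
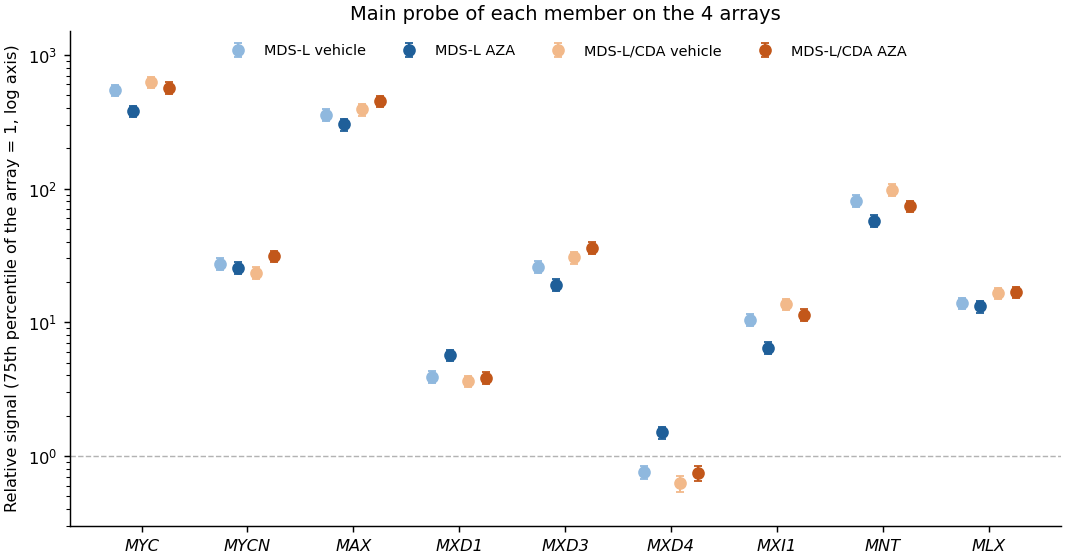
Relative signal (75th percentile of the array = 1, log axis) of the main probe of each member on the 4 arrays; bars are the scanner's error of each signal. The dark blue points (MDS-L AZA) are the lowest of the 4 for MYC, MAX, MXD3, MXI1, MNT and MLX, and the highest for MXD1 and MXD4.

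MYC, the family member that drives growth in most dividing cells, was measured by a main probe at the 3′ end of the gene (hg19 chromosome 8, 128753268 to 128753327, plus strand) that was printed in 10 spots on each array. Its relative signal was 544 with vehicle and 378 with AZA in MDS-L cells, and 622 with vehicle and 566 with AZA in MDS-L/CDA cells. MDS-L AZA thus stood lowest and the other arrays lay close together. The ratio of AZA to vehicle was 0.695 in MDS-L cells (log2 −0.52) and 0.909 in MDS-L/CDA cells (log2 −0.14). Under AZA the signal was 1.5-fold higher in MDS-L/CDA than in MDS-L cells, whereas in vehicle it was 1.14-fold higher.

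The 10 spots show the technical spread within an array, which does not include the effect of scaling between arrays. They ran from 455 to 624 in MDS-L vehicle (547 ± 53.7, SD over spots, n = 10 spots) and from 331 to 444 in MDS-L AZA (380 ± 36.1), so the spots of these arrays did not overlap. The same held for 33.7% of 264 probes that were spotted in the same way. In MDS-L/CDA cells the spots ran from 534 to 689 in vehicle (624 ± 51.1) and from 489 to 658 with AZA (568 ± 49.2), and they overlapped, as all but 2.66% of 263 such probes did. Between the lines, the MYC spots overlapped in vehicle and did not overlap with AZA, where 13.3% and 26.2% of such probes did not overlap. That holds for scaled signals. Without scaling, the log2 ratio of MYC between the lines with AZA was 0.07, in place of 0.58. Among the 1111 genes with a mean relative signal over 100, the median log2 ratio in MDS-L cells was −0.25 and the lower quartile −0.45, so the MYC main probe lay below that quartile.

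**Figure D2:**
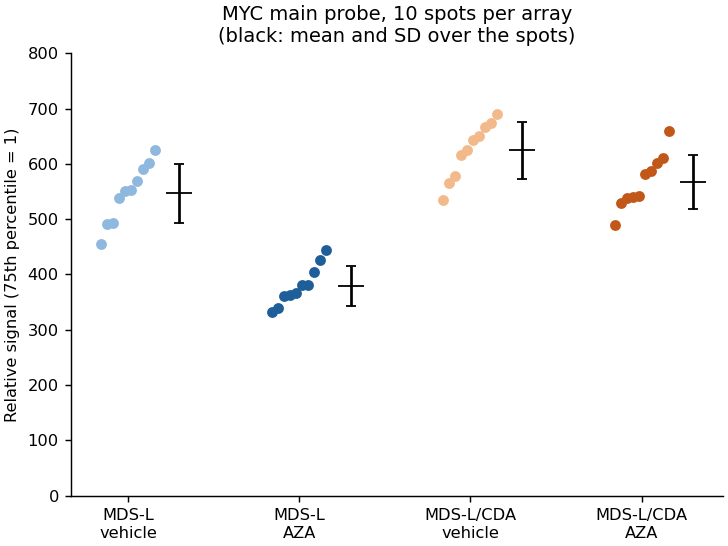
Relative signal (75th percentile of the array = 1) of the 10 spots of the MYC main probe on each array, with mean and SD over spots in black. The MDS-L AZA spots, 331 to 444, lie below all spots of the other 3 arrays.

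The second MYC probe (hg19 chromosome 8, 128748076 to 128748135) lies near the 5′ end of the gene and is annotated to RNA that starts at its upstream promoter, called P0. It read a relative signal of 0.841 with vehicle and 0.337 with AZA in MDS-L cells, and 0.723 with vehicle and 0.805 with AZA in MDS-L/CDA cells, so the array that was lowest for the main probe was lowest here too. The ratio of AZA to vehicle was 0.400 in MDS-L cells (2.50-fold lower, log2 −1.32 with a scanner error of 0.30) and 1.11 in MDS-L/CDA cells. The lowest signals called above background were between 0.190 and 0.296 on the 4 arrays, so the MDS-L AZA signal was close to that limit, and each signal rests on 1 spot.

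MYCN, which has the same partners as MYC and is known chiefly from neural tissue and its tumours, had 1 probe. Its relative signal was 27.4 with vehicle and 25.4 with AZA in MDS-L cells, and 23.4 with vehicle and 31.2 with AZA in MDS-L/CDA cells. The arrays of MDS-L cells were alike, with a ratio of 0.929, and the AZA array was higher in MDS-L/CDA cells, with a ratio of 1.33. The log2 ratio in MDS-L/CDA cells, 0.42, was larger than its scanner error of 0.20.

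MAX, the partner with which MYC and MYCN bind DNA, was read by 3 probes. The main probe gave 356 with vehicle and 301 with AZA in MDS-L cells, and 390 with vehicle and 451 with AZA in MDS-L/CDA cells. The probe of the basic region printed above gave 15.6, 13.7, 16.6 and 19.6 in the same order. The third probe, annotated to another MAX transcript variant, gave 4.49, 3.34, 4.0 and 5.41. At this scaling, all 3 were lowest in MDS-L AZA and highest in MDS-L/CDA AZA. Without scaling, all 3 were instead highest in MDS-L vehicle and lowest in MDS-L/CDA vehicle, so the order over the arrays depends on the scaling. In MDS-L cells the ratios were 0.848, 0.874 and 0.744, in MDS-L/CDA cells 1.15, 1.18 and 1.35, and under AZA the signals were 1.5-, 1.44- and 1.62-fold higher in MDS-L/CDA than in MDS-L cells. The probes share the RNA of each array and are not replicates.

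The MXD genes, which encode repressors that compete for MAX, did not share a direction. MXD4, an MXD gene found in many resting and differentiated cells, had the largest AZA ratio of the 9 main probes in MDS-L cells. Its relative signal was 0.760 with vehicle and 1.5 with AZA in MDS-L cells. In MDS-L/CDA cells it was 0.623 with vehicle and 0.745 with AZA, so MDS-L AZA was the highest array. Each signal rests on 1 spot, and spots of one probe at this level had an SD of 0.40 on the log2 scale. The ratio was 1.98 in MDS-L cells (log2 0.98, scanner error 0.22) and 1.20 in MDS-L/CDA cells (log2 0.26, scanner error 0.27). Under AZA the signal was 2.02-fold lower in MDS-L/CDA than in MDS-L cells, which is the difference that passed 2-fold by a small margin (log2 −1.01). It did not pass with normexp background correction (log2 −0.62) or when a Z score of at least 2 was asked for as well (Z −1.16). The second MXD4 probe read 0.268 in MDS-L vehicle and 0.777 in MDS-L AZA, a 2.90-fold higher signal, and was not well above background on either MDS-L/CDA array. Under AZA it was at least 2.63-fold lower in MDS-L/CDA than in MDS-L cells.

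MXD1, known for its induction as myeloid cells mature, showed the same order for its main probe. Its relative signal was 3.91 with vehicle and 5.66 with AZA in MDS-L cells, and 3.62 with vehicle and 3.86 with AZA in MDS-L/CDA cells. The ratio was 1.45 in MDS-L cells (log2 0.53) and 1.07 in MDS-L/CDA cells (log2 0.09). The probe that crosses an intron, printed above, was not well above background on the vehicle arrays. It read 0.194 with vehicle and 0.382 with AZA in MDS-L cells, a ratio of 1.97 (log2 0.98, scanner error 0.43). In MDS-L/CDA cells it read 0.309 with vehicle and 0.325 with AZA, a ratio of 1.05 (log2 0.07, scanner error 0.46). These ratios rest on vehicle signals near background and are not lower limits. The MXD1 signal was thus highest in MDS-L AZA by the main probe. By the probe that crosses an intron, MDS-L/CDA AZA stood at log2 −0.23 against MDS-L AZA. That is within its scanner error of 0.39, so this probe does not settle which array was highest.

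MXD3, which is known for expression in dividing cells unlike the other MXD genes, differed from MXD1 and MXD4 in direction. Its main probe gave 26.1 with vehicle and 19.1 with AZA in MDS-L cells, and 30.5 with vehicle and 35.9 with AZA in MDS-L/CDA cells. The ratio was 0.733 in MDS-L cells (log2 −0.45) and 1.18 in MDS-L/CDA cells (log2 0.23), and under AZA the signal was 1.88-fold higher in MDS-L/CDA than in MDS-L cells. The second MXD3 probe, for another transcript, was above background in MDS-L vehicle alone, at 0.285. It read 0.213 in MDS-L AZA, 1.34-fold lower (log2 −0.42), which is within its scanner error of 0.46.

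**Figure D3:**
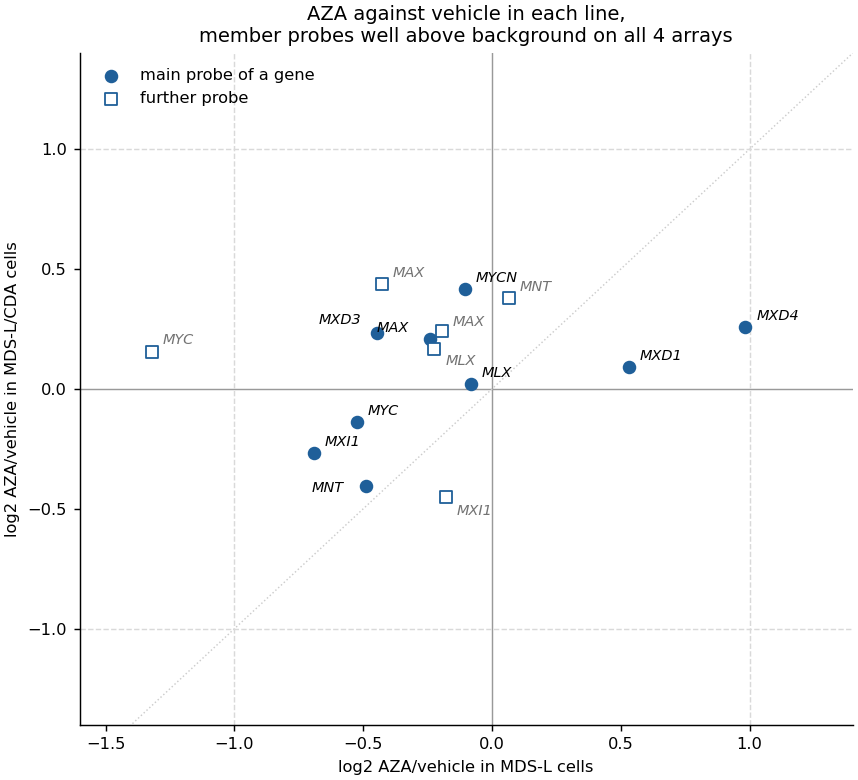
log2 ratio of AZA to vehicle in MDS-L cells (x axis) against that in MDS-L/CDA cells (y axis), for the 15 member probes well above background on all 4 arrays; filled circles are main probes, open squares further probes, dashed lines a ratio of 2 and the dotted line equal ratios. MXD4 and MXD1 lie to the right, and the second MYC probe, at −1.32 in MDS-L cells, is the only one beyond a dashed line.

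MXI1, the repressor also called MXD2, had the lowest ratio of the 9 main probes in MDS-L cells. That probe, at the 3′ end, gave 10.4 with vehicle and 6.47 with AZA in MDS-L cells, and 13.6 with vehicle and 11.3 with AZA in MDS-L/CDA cells. The ratio was 0.620 in MDS-L cells (log2 −0.69) and 0.831 in MDS-L/CDA cells (log2 −0.27). A neighbouring probe in the same 3′ region gave 2.44, 2.15, 3.43 and 2.51 in the same order, with ratios of 0.884 and 0.731, so the probes shared the direction in both lines and differed on which line had the lower ratio. The third probe, the one printed above that reads the SIN3-binding stretch of another MXI1 transcript variant, stayed below the background flag on all 4 arrays.

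MNT, a repressor that pairs with MAX in resting and dividing cells alike, was lower with AZA in both lines by its main probe. Its relative signal was 80.9 with vehicle and 57.6 with AZA in MDS-L cells, and 97.6 with vehicle and 73.6 with AZA in MDS-L/CDA cells, so each AZA array lay below its own vehicle array. The ratios, 0.712 in MDS-L and 0.755 in MDS-L/CDA cells, were alike (log2 −0.49 and −0.41). The second MNT probe did not show this: it read 1.00, 1.05, 1.01 and 1.31 in the same order, with ratios of 1.05 and 1.30.

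MLX, which joins the network through the MXD proteins and the Mondo factors, varied least of the 9 by its main probe. That probe gave 13.9 with vehicle and 13.1 with AZA in MDS-L cells, and 16.5 with vehicle and 16.8 with AZA in MDS-L/CDA cells, with ratios of 0.945 and 1.02, both within the scanner error. The second probe, which crosses an intron, varied more and gave 2.76, 2.37, 3.29 and 3.69, with ratios of 0.856 and 1.12. At this scaling, both probes were higher on the MDS-L/CDA arrays than on the MDS-L arrays, by 1.19-fold each in vehicle. Without scaling, the main probe was instead lower in MDS-L/CDA than in MDS-L cells, at log2 −0.11 in vehicle and −0.15 with AZA.

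How far the values depend on scaling differs by gene. The median log2 ratio of all genes in MDS-L cells was −0.13 at the 75th percentile and −0.67 when arrays were scaled to their medians, so a member's value is read against it. Over the 7 scalings and sources of values, 6 of 9 members kept their sign for MDS-L and 7 of 9 for MDS-L/CDA cells. MYC ranged from −1.07 to −0.28 in MDS-L cells, with −0.29 in the authors' own value table, and from −0.27 to −0.10 in MDS-L/CDA cells. MXD4 ranged from 0.44 to 1.00 in MDS-L cells and stayed above all other members throughout. MYCN and MLX changed sign in MDS-L cells, reaching 0.11 and 0.08 after quantile normalization within the line, and MXD1 reached −0.01 with median scaling. MXD1 and MLX changed sign in MDS-L/CDA cells. Between the lines in vehicle, 6 of 9 members changed sign, MYC from 0.19 to −0.33, so their order in vehicle is not settled. Between the lines with AZA, 3 of 9, MYCN, MNT and MLX, changed sign, and MYC and MAX kept theirs but stood at 0.07 each without scaling, in place of 0.58 each.

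**Figure D4:**
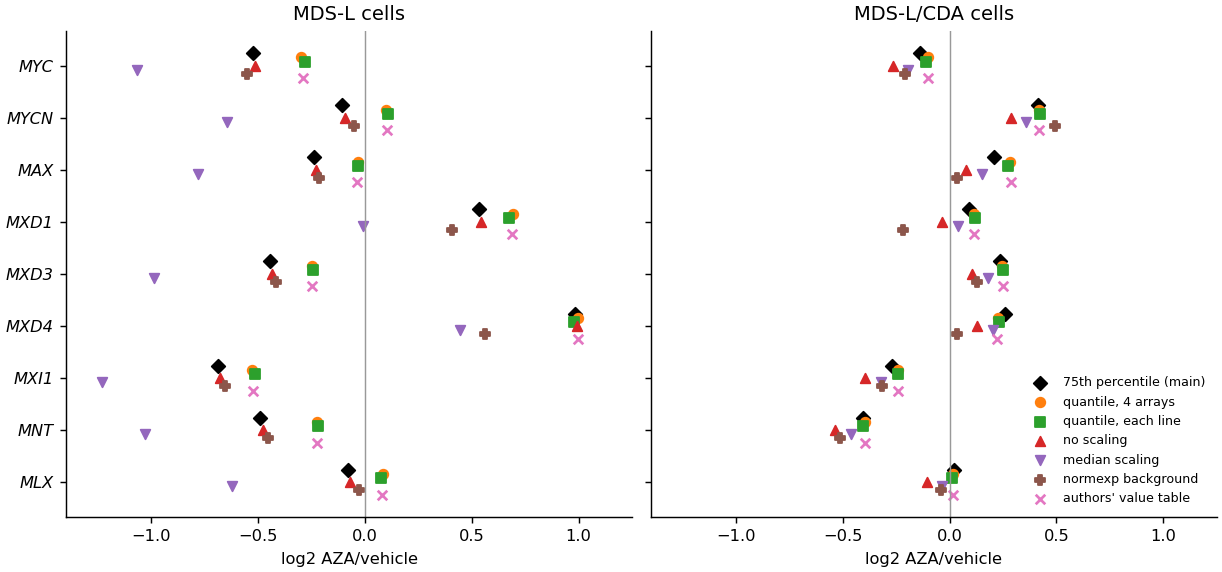
log2 ratio of AZA to vehicle of each member's main probe in MDS-L cells (left) and MDS-L/CDA cells (right) under 7 scalings or sources of values. Median scaling moves all members of MDS-L cells to the left, and MXD4 stays to the right of all others in MDS-L cells under each setting.

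Of the 4 other MAX network genes, MLXIPL stayed below the background flag on all 4 arrays. MYCL, the third MYC gene, gave 3.55, 2.97, 3.57 and 3.22 in MDS-L vehicle, MDS-L AZA, MDS-L/CDA vehicle and MDS-L/CDA AZA. MGA, a MAX partner that represses germline genes, gave 18.2, 16.6, 18.1 and 21.2, and MLXIP, the Mondo partner of MLX, gave 29.0, 24.5, 33.5 and 30.0. None of the 3 passed 2-fold in either line. The shares of all genes were 6.73% higher and 6.03% lower in MDS-L cells, and 2.53% and 3.07% in MDS-L/CDA cells. With 3 genes, such a count cannot be told from these shares. The median log2 ratio of the 3 was −0.24 in MDS-L and −0.15 in MDS-L/CDA cells. All genes had medians of −0.13 and 0.02.

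Among 18 proteins that work with MYC or MXD dimers, such as the histone acetyltransferase scaffold TRRAP and the deacetylase partner SIN3A, 14 had a lower signal with AZA in MDS-L cells and 9 did in MDS-L/CDA cells, where 58.9% and 48.3% of all genes did. The medians were −0.27 and 0.03 on the log2 scale. The 1 gene past 2-fold, of 18 in MDS-L cells where 6.03% of all genes were 2-fold lower, was MYCBP, whose product binds the amino-terminal part of MYC: its relative signal was 26.2 with vehicle and 4.58 with AZA in MDS-L cells, and 20.6 with vehicle and 10.9 with AZA in MDS-L/CDA cells. The ratios were 0.175 in MDS-L cells (log2 −2.51) and 0.528 in MDS-L/CDA cells (log2 −0.92), so both AZA arrays were lower.

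Regulators of MYC stability held the gene with the largest increase of these lists. PIM2, a kinase known to phosphorylate and stabilize MYC, gave 7.69 with vehicle and 35.9 with AZA in MDS-L cells, and 9.52 with vehicle and 21.6 with AZA in MDS-L/CDA cells, with ratios of 4.67 and 2.27. FBXW7, the subunit of a ubiquitin ligase that marks MYC for breakdown, gave 6.42, 2.92, 6.70 and 2.84, so that both AZA arrays were at a similar lower level and the ratios were 0.455 and 0.424. SKP2, a subunit of another ligase that acts on MYC, gave 8.11, 3.88, 11.3 and 6.72, with ratios of 0.479 and 0.593. In all, 1 gene was 2-fold higher and 2 lower of 12 measured in MDS-L cells, and 1 higher and 1 lower of 11 in MDS-L/CDA cells. Over all genes the shares were 6.73% higher and 6.03% lower in MDS-L, and 2.53% and 3.07% in MDS-L/CDA cells. MYC protein was not measured here.

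Among 32 genes that MYC is known to activate, 30 had a lower signal with AZA in MDS-L cells, where 58.9% of all genes did. The median log2 ratio was −0.48, against −0.13 for all genes, and 3 genes were at least 2-fold lower, where 6.03% of all genes were. TERT, the catalytic subunit of telomerase, gave 6.81 in MDS-L vehicle and 0.916 in MDS-L AZA, a ratio of 0.135. RRS1, a ribosome assembly factor, gave 62.8 and 26.9 (0.428), and EIF4E, the cap-binding translation factor, gave 48.2 and 21.5 (0.446). In MDS-L/CDA cells, 19 of 32 were lower, where 48.3% of all genes were, with a median of −0.07. There TERT gave 15.8 in vehicle and 10.0 with AZA, RRS1 37.5 and 42.8, and EIF4E 39.8 and 35.5, all within 2-fold. The 1 gene past 2-fold, where 3.07% of all genes were 2-fold lower, was NOLC1, a nucleolar phosphoprotein, at 68.6 in vehicle and 17.9 with AZA (0.260), against 65.2 and 44.9 in MDS-L cells. Bright genes, with a mean relative signal over 100, had a median of −0.25 in MDS-L cells, though many genes of the list were dimmer. After quantile normalization over the 4 arrays, the list median in MDS-L cells was −0.26 and that of all genes −0.01. The part of signal level in the list median was not tested. The list is not specific to MYC, since many of its genes follow growth in general.

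Of 9 measured genes that MYC is known to repress, 6 had a higher signal with AZA in MDS-L cells (median log2 ratio 0.35), as had 5 of 8 in MDS-L/CDA cells (0.28), where 58.9% and 48.3% of all genes were lower. CDKN1A, the cell cycle inhibitor p21, was not well above background in vehicle and read 0.313 in MDS-L AZA and 0.600 in MDS-L/CDA AZA, at least 1.60-fold and 2.20-fold higher. CDKN1B, the inhibitor p27, went the other way, with 4.09 with vehicle and 1.56 with AZA in MDS-L cells, and 3.33 with vehicle and 2.44 with AZA in MDS-L/CDA cells, and ratios of 0.381 and 0.735. Of the 6 genes bound by MLX with its Mondo partners, 3 were higher and 3 lower in MDS-L cells, and 1 was higher and 4 lower of 5 in MDS-L/CDA cells. ACACA, an enzyme of fatty acid synthesis, was the 1 past 2-fold in both lines, with 79.0 and 33.3 in MDS-L cells and 80.4 and 39.5 in MDS-L/CDA cells. Of all genes, 6.73% were at least 2-fold higher and 6.03% lower in MDS-L cells. In MDS-L/CDA cells the shares were 2.53% and 3.07%.

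Proliferation genes had the direction of the activated targets in MDS-L cells. All 16, among them MKI67, CCNB1 and the replication helicase gene MCM2, had a lower signal with AZA in MDS-L cells (median log2 ratio −0.48) and none passed 2-fold, while 12 of 16 had a higher signal in MDS-L/CDA cells (median 0.12). The shares of all genes that were lower were the 58.9% and 48.3% given above. Their part in the difference of MYC between the lines was not tested.

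**Figure D5:**
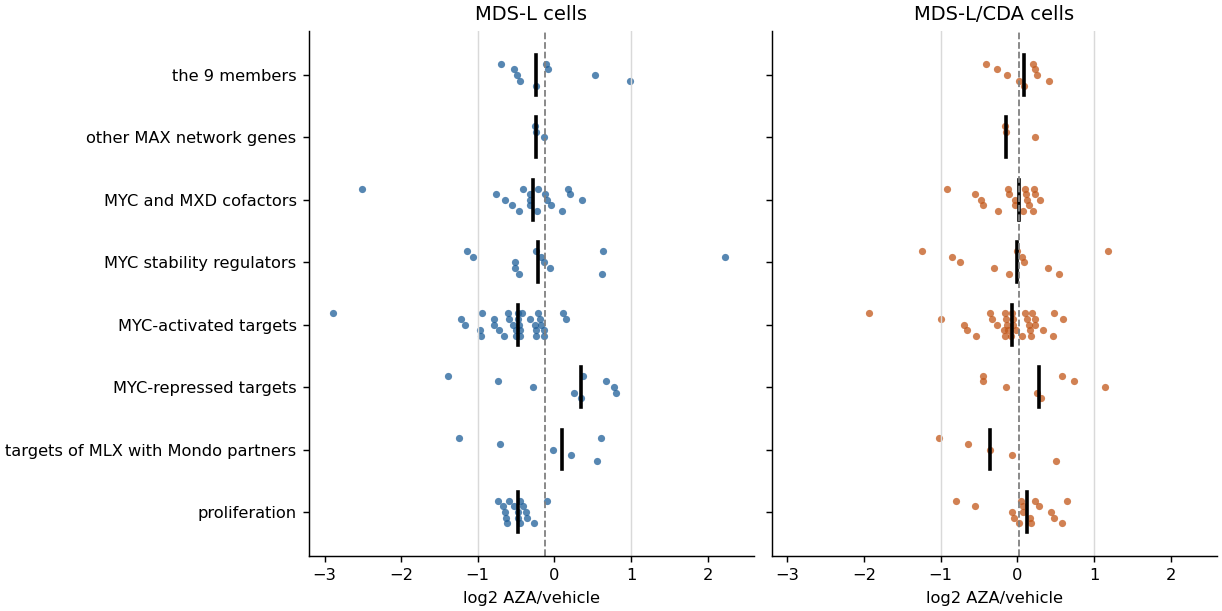
log2 ratio of AZA to vehicle for the 9 members and the genes of each list in MDS-L cells (left) and MDS-L/CDA cells (right). Each point is 1 gene above background on either array. A signal under the array's lowest signal above background was raised to it. Black bars are medians, the dashed line is the median of all genes and grey lines mark a ratio of 2. The activated targets and the proliferation genes have medians of −0.48 in MDS-L cells and of −0.07 and 0.12 in MDS-L/CDA cells.

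The genes whose pattern over the 4 arrays was most like that of MYC were an unnamed transcript that the design lists as ENST00000415545, then CCDC171, PBX2, FAM213B and XRCC6BP1. Likeness was the root mean square distance between log2 signals, each centred on its own mean over the 4 arrays, among 13961 other genes. It was between 0.0078 and 0.014 for these 5, far under the spread between spots. PBX2, a homeobox cofactor, for example had ratios of 0.694 and 0.923, next to 0.695 and 0.909 for MYC. All 5 were chosen for this likeness over 4 arrays.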

How the data were processed

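RNA of 4 samples was hybridized to 1-colour Agilent arrays, 1 per group. The scanner files deposited by the authors come from Agilent Feature Extraction and give background-subtracted spot intensity, not scaled between arrays, and flags (0 or 1, used as the authors' files give them) for outliers and for signals well above background. The authors also deposited a value table of intensity on a linear scale, whose sorted columns lie within 0.039 of each other on the log2 scale, as after quantile normalization, a step not described in the sources used here.

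Here, control spots and outlier spots were left out (16 probes lost all), log2 intensity was averaged per probe, and the 75th percentile of the array was subtracted. A gene was counted by its main probe, at 2-fold, if well above background on the brighter array. A dimmer signal below background was raised to the array's lowest signal well above background if it lay under that, which gives a bound. A dimmer signal that lay above that limit was used as read, and its ratio is not a bound. The study's additional Z score, whose formula is not given in the sources used here, was tried as an alternative, beside other scalings, normexp background correction with an offset of 50, other filters and other rules for probes. The code that counts genes past 2-fold was tested on simulated data with known changes. The text names all members, the other MAX network genes, list genes past 2-fold with AZA and the 5 genes most like MYC. Marker genes shown as values, genes listed as examples and probes singled out for their sequence were added to this rule. The members and the 7 lists (102 genes) were chosen with earlier results of these data known. Gene names and hg19 positions are those of the array design. Promoter windows are from RefSeq. Python 3.11.15, numpy 2.4.6, pandas 2.3.3, matplotlib 3.10.9, R 4.3.3 and limma 3.58.1 (normexp) were used.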

Additional observations from a re-analysis of the deposited data

Results flagged for a closer look

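Results are collected here whose log2 ratio of AZA to vehicle had opposite signs in the lines. With 1 array per group no difference between lines was tested for any of them. Of the 9 main probes, 4 had opposite signs (44.4%), those of MYCN, MAX, MXD3 and MLX, where 38.5% of 13962 genes had, so the share is near that of all genes. Over all 15 member probes measured on the 4 arrays the count was 8, of which 3 read MAX and 2 MLX. The second MYC probe stood at −1.32 in MDS-L and 0.16 in MDS-L/CDA cells. MYCN stood at −0.11 and 0.42. The 3 MAX probes stood at −0.24 and 0.21, at −0.19 and 0.24, and at −0.43 and 0.44. The main MXD3 probe stood at −0.45 and 0.23. MLX stood at −0.081 and 0.022 by its main probe, and at −0.22 and 0.17 by the second, sizes near or under the scanner error.

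Of the list genes measured on all 4 arrays, 43 of 91 (47.3%) had opposite signs. Of those whose values the text gives, by the rule for named genes, MGA stood at −0.14 in MDS-L and 0.22 in MDS-L/CDA cells, and RRS1 at −1.22 and 0.19. Of the lists, the median of the MYC and MXD cofactors stood at −0.27 and 0.026, that of the targets of MLX with its Mondo partners at 0.10 and −0.36, and that of the proliferation genes at −0.48 and 0.12.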

How the results depend on the processing

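Of 100 recomputed counts of members past 2-fold, 89 stayed within 1.5 times and 11 moved. For AZA in MDS-L cells, 1 member was higher, in place of 0, by the median over probes, when any probe sufficed and at 1.5-fold, and 3 were lower with median scaling, 1 when any probe sufficed and 1 at 1.5-fold, in place of 0. For the lines with AZA, 1 member was higher in MDS-L/CDA cells when any probe sufficed and 2 at 1.5-fold, in place of 0, and 2 were lower without scaling, 0 with normexp and 0 with a Z score of at least 2, in place of 1. Of 270 log2 ratios of members, 209 moved by less than the SD between spots and 61 by more. Of 140 list medians, 133 moved by less than that SD, 6 by more, and 1 reversed: the MYC-repressed targets in MDS-L cells stood at −0.19 with median scaling. Of all calls in MDS-L cells, 52.7% were higher in the scaling used and 11.5% with median scaling. In MDS-L/CDA cells, 45.2% were higher, against 29.0% without scaling and 26.3% with normexp. Between the lines in vehicle, 42.8% were higher, against 7.61% without scaling, 3.37% with median scaling and 12.5% with normexp. With AZA, 51.0% were higher, against 7.11% without scaling and 22.5% with normexp. The causes were not tested.

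No replicate could be left out with 1 array per group. No paired analysis was possible because each group holds 1 array and no test was made. Signals under about 0.30 of the 75th percentile were near background, which limits the second probes of MXD1, MXD3 and MXD4.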
